A study of Mus musculus with 9 samples.

Results

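Genes of the ATF4 pathway, the transcriptional arm of the integrated stress response, were examined in mouse embryonic stem cells (mESCs) with altered RING1B. A list of 38 genes was used, and 37 of them had a probe among the 19289 named genes tested. Phgdh, the first enzyme of serine synthesis, had none in that set. The genes were taken by name, and each was read from its brightest probe, chosen by the mean log2 signal over all 9 arrays. They fall into 8 transcription factors, 8 stress effectors, 9 genes of amino acid and one-carbon synthesis, 5 amino acid transporters and 8 tRNA synthetase and tRNA export genes.

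In the integrated stress response, kinases that sense amino acid shortage, unfolded protein, viral RNA or heme loss phosphorylate the translation factor eIF2. General protein synthesis then slows, while the mRNA of ATF4 is translated more. ATF4 pairs with C/EBP proteins and switches on genes for amino acid uptake and synthesis, tRNA charging and, when the stress lasts, cell death. The arrays measure mRNA, so they show neither eIF2 phosphorylation nor ATF4 protein.

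The cells were E14Tg2a, a male mESC line of strain 129P2/OlaHsd, and 3 groups of 3 arrays were compared. They were unmodified cells (WT), Ring1B -/- cells lacking exon 3 of Rnf2 (KO), and Ring1B I53A/I53A cells (I53A), in which RING1B remains but can no longer act as a ubiquitin ligase. RING1B is the catalytic subunit of Polycomb repressive complex 1. All groups grew with serum and LIF in medium that held non-essential amino acids, pyruvate, glutamine and mercaptoethanol. No stress was applied. A column name of the deposited table ties the KO arrays to 1 clone, and the methods call the arrays of a group biological replicates without saying whether they were separate cultures or clones, so p-values measure the spread between these arrays.

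The share of probes well above background was 45.4% to 57.5% per array. The 8 measured ES cell markers were above background on all arrays. Rnf2 had mean log2 signals of 8.35 in WT, 7.78 in KO and 8.79 in I53A, and whether its probe lies within the deleted exon was not checked. In KO, genes of chromosome 11 had a median log2 fold change (log2FC) of 0.26 against WT, and no other chromosome had one above 0.1. Of the 38 genes only Stc2 lies there. A gene is said to have fallen or risen, or to be called, where limma's adjusted p was under 0.05 and the change was more than 2-fold. In bulk RNA, fewer cells of a type and less RNA per cell cannot be told apart.

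Atf4 itself fell in both mutant lines. In KO, Ddit3 (CHOP), Chac1 and Slc7a3 fell with it, which makes 4 of 37 genes lower and 0 higher. In I53A, Atf4, Ddit3, Chac1 and Mthfd2 fell, again 4 of 37, with 0 higher. Over all genes tested, 1.25% were called lower and 3.11% higher in KO, and 0.119% lower and 0.316% higher in I53A. At an unadjusted p under 0.05, 10 of the 37 genes were lower and 3 higher in KO, where 8.35% and 10.6% of all genes were. In I53A 9 were lower and 2 higher, beside 4.09% and 6.14% of all genes. The log2FC was negative for 24 of the 37 genes in KO and positive for 13, beside 51.5% and 48.5% of all genes, and for 26 and 11 in I53A, beside 50.5% and 49.5%. The median log2FC over the 37 genes was −0.12 in KO and −0.30 in I53A, beside −0.02 and −0.00 over all genes. The lean in KO depended on the normalization. With scaling to the 75th percentile, 20 of the 37 genes were negative in KO, with a median of −0.10 beside −0.05 over all genes. In I53A 26 were negative with that scaling, with a median of −0.28 beside −0.02. Both comparisons use the same WT arrays.

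Atf4 (chromosome 15, 80255184 to 80257545 in GRCm38) gave log2 signals of 10.67, 10.85 and 11.20 on the WT arrays. They were 8.60, 8.46 and 8.65 in KO and 8.88, 8.91 and 9.18 in I53A. Every mutant array lay below every WT array. The log2FC was −2.34 in KO (SE 0.22, limma adjusted p 0.000352), a 5.05-fold decrease, and −1.92 in I53A (SE 0.22, adjusted p 0.00825), a 3.78-fold decrease. A second probe for Atf4 was lower by 1.77 in KO (log2 9.34 to 7.57, adjusted p 0.0351), while in I53A its mean of 8.01 did not pass the test (adjusted p 0.281). KO and I53A differed by −0.42 on the brighter probe (95% interval −0.91 to 0.07, adjusted p 0.54). The fall in I53A was not called without I53A 2 (log2FC −1.88, adjusted p 0.0527), and in KO it was called with every array left out in turn (adjusted p up to 0.00268).

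Ddit3 encodes CHOP, a C/EBP family member that ATF4 induces and that promotes cell death under lasting stress. Its log2 signals were 9.30, 9.43 and 9.29 in WT, 7.82, 8.15 and 7.90 in KO, and 8.02, 8.12 and 8.13 in I53A. The WT arrays lay close together and above all mutant arrays, and the mutant groups overlapped. The log2FC was −1.39 in KO (SE 0.20, limma adjusted p 0.00383) and −1.25 in I53A (SE 0.20, adjusted p 0.0371). KO and I53A differed by −0.13 (95% interval −0.58 to 0.31). In I53A the fall was called only with all arrays or without KO 1. It was not called without KO 2, KO 3 or any WT or I53A array (log2FC −1.28 to −1.21, adjusted p 0.0582 to 0.15). Ddit3 (chromosome 10, 127290793 to 127296291) meets the end of the oppositely oriented Mars1 (127296221 to 127311786), a methionyl-tRNA synthetase gene, which had log2FC of −0.22 and −0.30 (adjusted p 0.664 and 0.733).

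**Figure D1:**
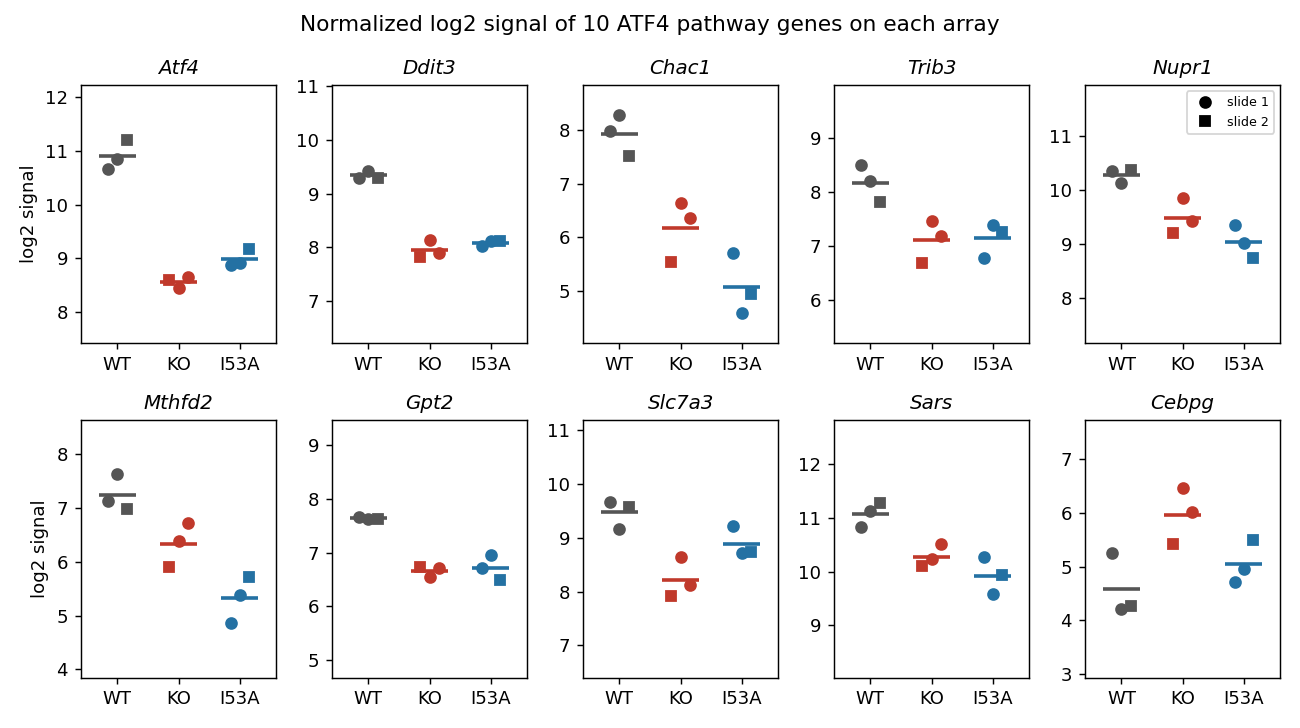
Normalized log2 signal (y axis) of 10 genes of the pathway on each array (x axis: WT, KO and I53A), with circles for slide 1, squares for slide 2 and a line at each group mean. For Atf4, Ddit3, Chac1, Trib3, Nupr1, Mthfd2, Gpt2 and Sars the 3 WT arrays lie above all KO and I53A arrays. For Slc7a3 they lie above the KO arrays and overlap I53A. Cebpg has its highest mean in KO.

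The other transcription factors did not follow Atf4 in a single direction. None of the other 6 was called in either comparison. Without adjustment (p under 0.05), Nupr1 was lower and Cebpg and Atf3 higher in KO, and Nupr1 was lower and Atf3 higher in I53A. Nupr1, a small stress-induced chromatin protein, had log2 signals of 10.36, 10.13 and 10.37 in WT, 9.20, 9.85 and 9.42 in KO, and 9.35, 9.02 and 8.74 in I53A. All WT arrays were higher, with a log2FC of −0.80 in KO (adjusted p 0.121) and −1.25 in I53A (0.0924). Cebpg, a partner of ATF4 on DNA, leaned the other way in KO. Its signals were 5.25, 4.21 and 4.27 in WT, 5.41, 6.46 and 6.02 in KO, and 4.72, 4.95 and 5.49 in I53A (KO log2FC 1.39, SE 0.37, adjusted p 0.0692). It was well above background on 1 WT, 3 KO and 2 I53A arrays, and it was called higher in KO without WT 1 (1.72, adjusted p 0.0455).

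Atf3, an immediate stress-response factor, was not well above background on any WT array and was so on 2 KO and 2 I53A arrays. Its log2 signals were 4.39, 4.27 and 4.51 in WT, 4.70, 5.73 and 6.05 in KO, and 5.14, 5.85 and 5.81 in I53A. The WT arrays were the lowest. The mean signal was 2.15-fold higher in KO (adjusted p 0.124) and 2.32-fold higher in I53A (0.265), and neither difference was called. These folds are against the probe's own WT signal, which was not well above background. Without KO 1 Atf3 was called higher in KO (log2FC 1.50, adjusted p 0.0265). For genes below, at least means against the lowest signal well above background on each array of the dim group. Where the probe's own signal was higher, that signal was used. Jdp2, a bZIP repressor, had log2FC of 0.61 in KO and −0.66 in I53A, neither called (adjusted p 0.42 and 0.642). Atf5 and Cebpb stayed within 0.36 of WT on the log2 scale.

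Among the stress effectors Chac1 had the largest differences. It encodes an enzyme that breaks down glutathione and is a target of ATF4 and CHOP. The log2 signals of Chac1 (chromosome 2, 119351242 to 119354326) were 7.98, 8.28 and 7.52 in WT, 5.54, 6.64 and 6.36 in KO, and 5.70, 4.60 and 4.94 in I53A. Both mutant groups lay below WT and overlapped each other at their edge. In I53A the probe was well above background on 2 of 3 arrays. The log2FC was −1.74 in KO (SE 0.37, limma adjusted p 0.0281), a 3.35-fold decrease, and −2.84 in I53A (SE 0.37, adjusted p 0.0153), a 7.18-fold decrease. With normexp background correction the log2FC was smaller, at −1.04 in KO (adjusted p 0.0529) and −1.49 in I53A (0.0486). KO was 2.14-fold above I53A (95% interval of the log2FC 0.27 to 1.93, adjusted p 0.253). The call in KO was lost without any WT array, KO 1 or KO 3 (log2FC −1.95 to −1.42, adjusted p 0.0506 to 0.0992). The call in I53A was lost without WT 1, WT 2, I53A 2 or I53A 3 (−2.82 to −2.60, adjusted p 0.0703 to 0.0773).

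Trib3, a pseudokinase that ATF4 and CHOP induce and that restrains ATF4, came close to the threshold in KO. Its log2 signals were 8.51, 8.21 and 7.81 in WT, 6.68, 7.46 and 7.18 in KO, and 6.78, 7.39 and 7.25 in I53A. WT was above both mutants on every array, with log2FC of −1.07 (adjusted p 0.0758) and −1.04 (0.248). The other 6 effectors had smaller or more variable differences. At an unadjusted p under 0.05, Ero1a was lower and Sesn2 higher in I53A (adjusted p 0.474 and 0.526), and none of the 6 differed in KO. For both genes the I53A arrays did not overlap the WT arrays. Ddit4 and Sesn2, which restrain mTORC1 signalling, had log2FC of 0.06 and −0.05 in KO and of 0.02 and 0.46 in I53A. Herpud1, a component of endoplasmic reticulum degradation, was well above background on 1 of the 9 arrays. Ero1a, Stc2 and Vldlr had log2FC between −0.24 and −0.09 in KO and between −0.75 and −0.08 in I53A. A second, dimmer Vldlr probe had −0.77 in both mutants, and neither probe passed the test.

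Many promoters of the pathway hold the element that ATF4 and C/EBP proteins bind together, and these sequences show where it lies. Windows of 300 bases, from 250 before to 50 after the annotated start (RefSeq, GRCm38.p6), were found for 32 of the 38 genes and searched on both strands for TGATGNAA, the core of the C/EBP-ATF response element. It was present for 13 of the 32 genes (40.6%), beside 4.51% of all 27025 genes with a window. By window, 35.1% of the members' windows and 3.97% of all windows held it. The windows of Atf4, Ddit3, Mthfd2, Gpt2 and Sars held none. For some of the 13 genes with a match the stretch around the match is given 5′ to 3′ on the strand of the gene, with the match in capitals (TTNCATCA is the same element on the other strand).
Chac1, chr2:119351038-119351067, plus strand: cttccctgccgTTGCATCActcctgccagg
Nupr1, chr7:126625562-126625591, minus strand: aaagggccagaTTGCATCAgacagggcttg
Trib3, chr2:152344028-152344057, minus strand: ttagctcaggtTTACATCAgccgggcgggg
Atf3, chr1:191183425-191183454, minus strand: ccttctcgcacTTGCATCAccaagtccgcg
Herpud1, chr8:94386306-94386335, plus strand: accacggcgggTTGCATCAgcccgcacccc
Asns, chr6:7693214-7693243, minus strand: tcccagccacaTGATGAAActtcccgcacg
Slc7a11, chr3:50443661-50443690, minus strand: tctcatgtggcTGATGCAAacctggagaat

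Of the stretches shown, the letters TTGCATCA stood in those of Chac1, Nupr1, Atf3 and Herpud1. The match began 193 bases before the start in Chac1, 110 before it in Nupr1 and Atf3, 112 before it in Herpud1, and 23 before it in Asns. In Trib3 it began at base 15 after the start. Of the 13 genes with a match, 7 lay below and 6 above WT in KO, with a median log2FC of −0.08. The 18 measured genes with windows and no match had a median of −0.23, with 13 below and 5 above WT. In I53A 10 of the 13 genes with a match were below WT and 3 above, and 11 and 7 of the 18 without, with medians of −0.10 and −0.27. Several genes with a match had signals near background, which limits what these medians can show. Pck2 and Slc7a11 were not well above background on any array, Herpud1 was on 1, and Atf3 and Aars were on 4 each. The dimmest gene without a match by this count, Cebpg, was well above background on 6. A match is only a match of letters, and no binding was measured.

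In amino acid and one-carbon synthesis, Mthfd2 fell in I53A and was the only gene of the branch called. It encodes the mitochondrial enzyme that interconverts folate one-carbon units. The log2 signals of Mthfd2 (chromosome 6, 83305704 to 83326011) were 7.12, 7.63 and 6.98 in WT, 5.91, 6.38 and 6.73 in KO, and 4.85, 5.38 and 5.72 in I53A. The groups were ordered WT, KO, I53A without overlap. In I53A the log2FC was −1.93 (SE 0.31, limma adjusted p 0.0392), with 2 of 3 arrays well above background, and in KO it was −0.91 (adjusted p 0.154). With normexp the difference in I53A was −1.10 and not called (adjusted p 0.0987). KO exceeded I53A by 1.02 (95% interval 0.33 to 1.71, adjusted p 0.197). The call in I53A was lost without KO 2 or any WT or I53A array (log2FC −2.13 to −1.70, adjusted p 0.0706 to 0.139).

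Gpt2, which makes alanine from pyruvate in mitochondria, was lower in both mutants by just under the fold threshold. Its log2 signals were 7.65, 7.63 and 7.63 in WT, 6.73, 6.55 and 6.70 in KO, and 6.72, 6.95 and 6.49 in I53A. The log2FC was −0.98 in KO (SE 0.21, limma adjusted p 0.0282) and −0.92 in I53A (adjusted p 0.135). It was the fifth gene lower in KO at an adjusted p under 0.05 with no fold threshold, where 1.51% of all genes were lower.

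Other enzymes of the branch went in both directions. Asns, asparagine synthetase and a standard readout of the amino acid response, had log2 signals of 11.37, 11.29 and 10.86 in WT, 11.59, 11.84 and 12.04 in KO, and 11.51, 10.90 and 10.89 in I53A. KO was above the other groups on every array (log2FC 0.65 against WT, adjusted p 0.225). Shmt2, mitochondrial serine hydroxymethyltransferase, had 0.86 in KO (adjusted p 0.291) and 0.23 in I53A, with WT arrays spread from 8.76 to 10.24. Psat1, of serine synthesis, had 0.26 in KO and −0.24 in I53A, and its second probe −0.21 and −0.37. Cth, which makes cysteine from cystathionine, had −0.48 and −0.36 on its brighter probe and −0.53 and −0.37 on the other. On both Cth probes every KO array lay below every WT array. None of these enzymes passed the test. Pck2 and Aldh1l2 were not well above background on any array. The 2 probes for Phgdh in the scan data lie outside the tested set. They had mean log2 signals of 10.28 and 9.09 in WT, 10.67 and 8.94 in KO, and 10.95 and 9.31 in I53A.

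Of the transporters, Slc7a3 fell in KO. It is a cationic amino acid transporter, which takes up arginine and lysine. The log2 signals of Slc7a3 (chromosome X, 101079146 to 101090452) were 9.68, 9.17 and 9.57 in WT, 7.92, 8.64 and 8.11 in KO, and 9.21, 8.72 and 8.74 in I53A. The KO arrays were the lowest of the 9, and I53A overlapped WT. The log2FC was −1.25 in KO (SE 0.27, limma adjusted p 0.0295) and −0.58 in I53A (adjusted p 0.558). KO was lower than I53A by −0.67 (95% interval −1.27 to −0.07, adjusted p 0.368). The call in KO was lost without WT 1, WT 3, KO 1 or KO 3 (log2FC −1.20 to −1.10, adjusted p 0.0844 to 0.12).

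The other transporters differed little from WT. Slc38a2, a neutral amino acid importer that ATF4 induces, had log2FC of −0.25 in KO and 0.22 in I53A. Slc3a2, the heavy chain shared by several exchangers, had 0.05 and 0.26. Slc7a5, its light-chain partner for leucine uptake, had 0.14 and −0.69 (adjusted p 0.886 and 0.588). A second Slc7a5 probe, well above background on all 9 arrays, had 0.35 and −0.15 (adjusted p 0.533 and 0.908). Slc7a11, the cystine importer, was not well above background on any array.

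None of the 8 tRNA synthetase and export genes was called in KO or I53A, but 6 of the 8 had negative log2FC in each. Over all genes 51.5% and 50.5% had a negative log2FC. In KO 2 were lower at an unadjusted p under 0.05 and in I53A 1, beside 8.35% and 4.09% of all genes, and 0 were higher in either. Sars, seryl-tRNA synthetase, had log2 signals of 10.83, 11.13 and 11.28 in WT, 10.10, 10.23 and 10.51 in KO, and 10.27, 9.58 and 9.93 in I53A. WT was above both mutants on all arrays, with log2FC of −0.80 (adjusted p 0.12) and −1.15 (0.117). Nars, asparaginyl-tRNA synthetase, had log2 signals of 9.18, 9.17 and 9.75 in WT, 9.04, 8.90 and 8.44 in KO, and 8.95, 8.60 and 8.85 in I53A, with log2FC of −0.58 and −0.57 (adjusted p 0.283 and 0.547). Again no mutant array reached the lowest WT array.

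The remaining genes of this branch were closer to WT or more variable. Xpot, the tRNA export receptor, had log2FC of −0.45 and −0.30, and Tars had −0.08 and −0.10. Gars, glycyl-tRNA synthetase, had 0.06 and −0.35. Wars, which interferon also induces, had 0.86 in KO (adjusted p 0.301) and 0.35 in I53A, and its second probe had 0.04 and −0.01. Aars was read from a probe above background on 1 WT, 0 KO and 3 I53A arrays, with means of 5.10, 4.41 and 5.43. On this probe the log2FC in KO was −0.69 (95% interval −1.42 to 0.04, adjusted p 0.314). Another Aars probe outside the tested set had mean log2 signals of 9.35 in WT, 9.03 in KO and 8.97 in I53A.

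**Figure D2:**
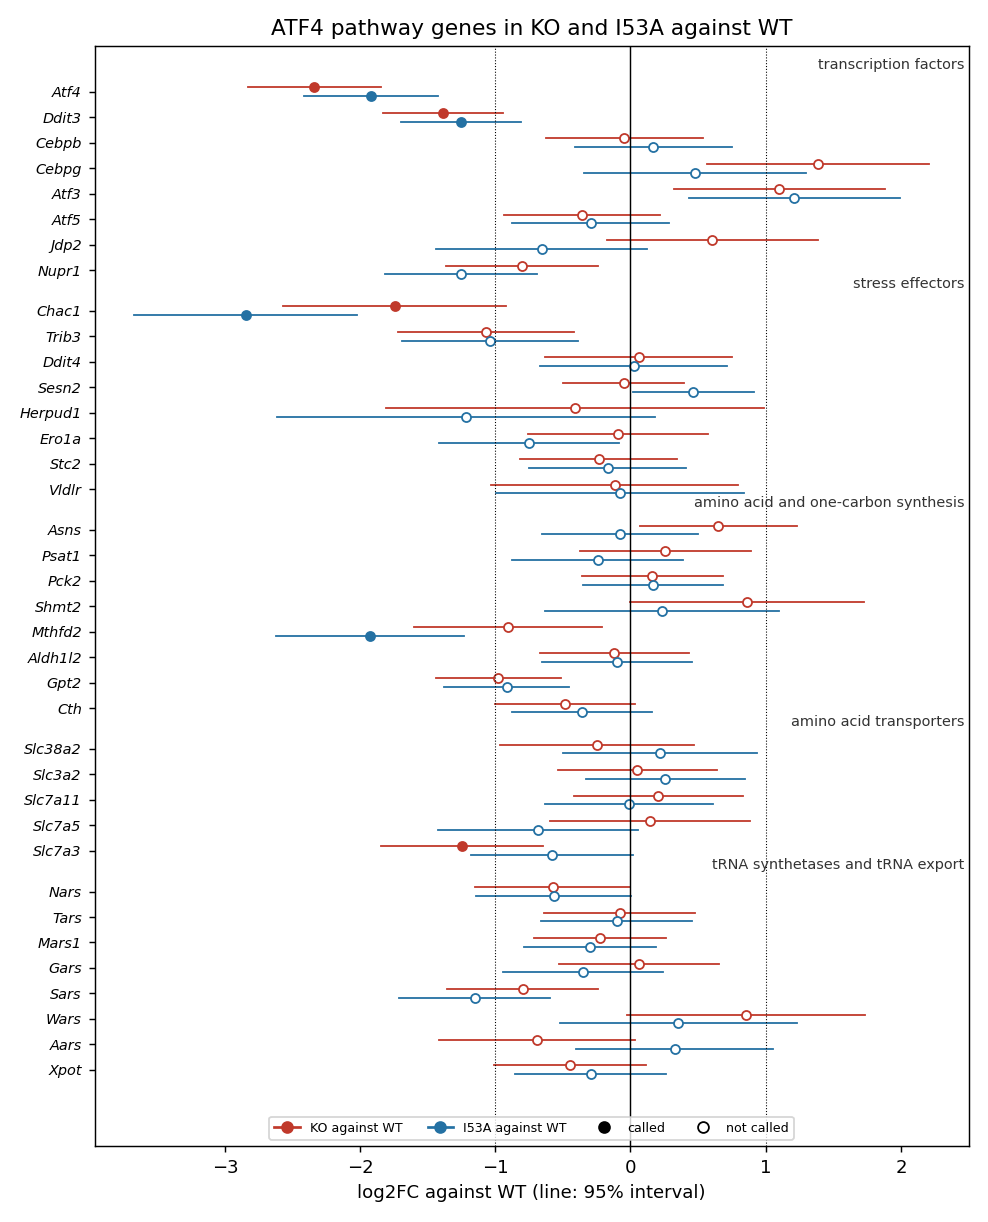
Log2 fold change against WT (x axis) of the 37 measured genes (y axis, by branch) in KO (red) and I53A (blue), with 95% intervals from limma as lines. Filled points were called, and dotted lines mark 2-fold. The 4 called genes of KO (Atf4, Ddit3, Chac1 and Slc7a3) and of I53A (Atf4, Ddit3, Chac1 and Mthfd2) all lie left of −1.

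In counts of arrays, 12 of the 37 genes had all KO arrays below all WT arrays and 3 had them above, where 13.7% and 12.8% of all genes did. For I53A the counts were 11 and 2, beside 9.84% and 9.09% of all genes. By branch, the median log2FC of the transcription factors was −0.20 in KO and −0.48 in I53A, and that of the effectors −0.18 and −0.46. The amino acid synthesis branch had 0.02 and −0.17, the transporters 0.05 and −0.01, and the tRNA branch −0.33 and −0.30. Set array by array against the WT means, the tRNA branch had medians of −0.42 to −0.25 on the KO arrays and −0.32 to −0.22 on the I53A arrays, with WT arrays from −0.05 to 0.13. The transporter medians of the KO arrays (−0.10 to 0.01) lay below those of the WT arrays (0.05 to 0.09), although the median log2FC of the branch in KO was above 0, and those of I53A overlapped WT.

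No member was called between KO and I53A in either direction, where 1.1% of all genes were called higher and 0.446% lower in KO. At an unadjusted p under 0.05, 6 members were higher in KO and 3 lower, beside 6.72% and 5.52% of all genes. Those higher in KO were Jdp2 (log2FC 1.26, adjusted p 0.146), Chac1, Mthfd2, Cebpg (0.91, 0.371), Asns (0.73, 0.292) and Slc7a5 (0.83, 0.364). On the second Slc7a5 probe the means were closer, at 5.92 in KO and 5.42 in I53A. Those lower were Slc7a3, Aars (−1.02, 0.228, on a probe not well above background in KO) and Sesn2 (−0.51, 0.346). The other Aars probe, outside the tested set but above background on all 9 arrays, had means of 9.03 in KO and 8.97 in I53A, with KO not the lower. The median over the 37 genes was −0.00, but with scaling to the 75th percentile it was 0.17, so no direction is given for the list as a whole.

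The 9 arrays came from 2 slides, with 2 arrays of each group on slide 1 and 1 on slide 2. The called genes had the same sign on both slides. Atf4 differed from WT by −2.21 in KO and −1.87 in I53A on slide 1 and by −2.60 and −2.02 on slide 2. Ddit3 differed by −1.34 and −1.30 on slide 1 and by −1.47 and −1.16 on slide 2. Chac1 differed by −1.63 and −2.98 on slide 1 and by −1.98 and −2.58 on slide 2. Slc7a3 in KO differed by −1.05 and −1.65, and Mthfd2 in I53A by −2.26 and −1.26. With 2 arrays a group, slide 1 alone called Atf4 in KO (adjusted p 0.0233) and no member in I53A.

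Upstream of ATF4, of 12 genes for eIF2 kinases, phosphatase subunits, eIF2B and the eIF2 subunit Eif2s1, none was called in either mutant. At an unadjusted p under 0.05, 3 were higher in KO and 1 in I53A, beside 10.6% and 6.14% of all genes, and 0 were lower. The kinase genes Eif2ak2 (PKR) and Eif2ak3 (PERK) were not well above background on any array, Eif2ak4 (GCN2) had log2FC of −0.12 in KO and 0.11 in I53A, and Eif2ak1 (HRI) had 0.74 and 0.77 (adjusted p 0.405 and 0.647). Ppp1r15a (GADD34), the stress-induced phosphatase subunit that ATF4 and CHOP switch on, had −0.34 and 0.03 (adjusted p 0.497 and 0.983). Eif2b4, a subunit of the eIF2 exchange factor, was higher in KO by less than the fold threshold (0.92, adjusted p 0.0354), and Eif2s1 had 0.92 (adjusted p 0.0546).

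The genes of the other eIF2 subunits were added after their values had been seen. Eif2s2 had log2 signals of 9.45, 9.19 and 9.42 in WT, 10.10, 10.84 and 11.04 in KO, and 9.54, 9.34 and 9.35 in I53A, and rose in KO (log2FC 1.31, SE 0.27, limma adjusted p 0.024). Eif2s3y, the Y-linked gene for the third subunit, had 7.13, 6.99 and 7.35 in WT, 6.03, 6.04 and 5.90 in KO, and 2.69, 3.10 and 2.74 in I53A. It fell in KO (−1.17, adjusted p 0.0151) and was not well above background in I53A, at least 10.9-fold lower than WT. The log2FC of Eif2s3y in I53A, −4.31, was the lowest of all genes. Its X-linked counterpart Eif2s3x had log2FC of −0.20 and 0.03. Other Y-linked genes, also added after values had been seen, had signals near or below background, so their probes show little about the groups. Ddx3y had −1.46 in KO and −1.32 in I53A but was not well above background on any array. Uty had 0.06 and 0.86 (adjusted p 0.956 and 0.438) and was well above background on 1 WT, 0 KO and 2 I53A arrays. Kdm5d was not well above background on any array.

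Regulators, chaperones and other targets of XBP1 and ATF6, the parallel arms of the unfolded protein response, lay mostly above WT. In KO 3 of 20 were called higher, where 3.11% of all genes were, and 0 lower. Of the 20, 19 had positive log2FC, with a median of 0.40, and in I53A 15 did, with a median of 0.16 and 0 called, beside 48.5% and 49.5% of all genes with a positive log2FC. Unadjusted p-values under 0.05 were found for 5 of them in I53A, all with higher signal, beside 6.14% of all genes. Set against the WT means, the list medians of the I53A arrays (0.12 to 0.30) overlapped those of the WT arrays (−0.10 to 0.14). Manf, a secreted stress protein, had log2 signals of 8.45, 8.97 and 8.93 in WT, 9.61, 10.55 and 10.40 in KO, and 10.49, 9.83 and 9.43 in I53A, and rose in KO (1.41, SE 0.34, adjusted p 0.0478). Every I53A array of Manf also lay above every WT array, with the largest log2FC of the list in I53A (1.135), which was not called. Creld2, an endoplasmic reticulum chaperone, rose in KO (1.14, SE 0.21, adjusted p 0.0139) and had 0.36 in I53A. Xbp1 rose in KO (1.20, SE 0.28, adjusted p 0.0406) with −0.14 in I53A, and it lies on chromosome 11, whose genes were higher as a whole in KO. Ern1 and Canx of the list lie there too. Hspa5 (BiP), the main chaperone of the compartment, had 0.00 in KO and 0.12 in I53A.

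**Figure D3:**
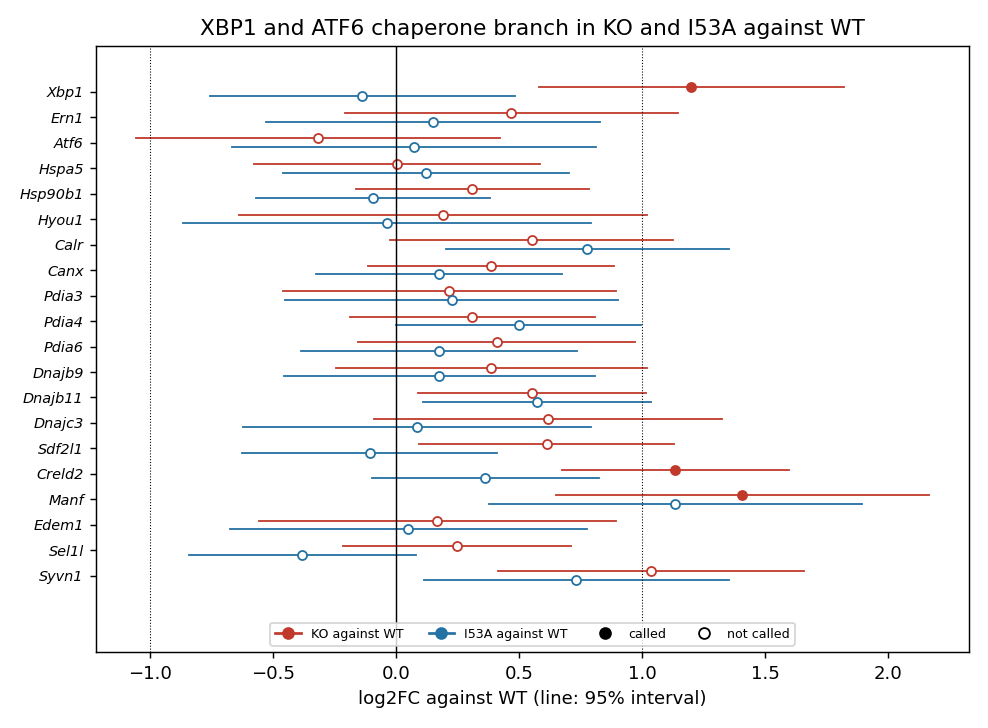
Log2 fold change against WT (x axis) of 20 genes of the XBP1 and ATF6 branch (y axis) in KO (red) and I53A (blue), with 95% intervals from limma as lines. Xbp1, Creld2 and Manf (filled) were called higher in KO, and Hspa5 lies at 0.00 in KO.

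Gene lists next to the pathway held few calls. Over all genes, 1.25% were called lower and 3.11% higher in KO, and 0.119% and 0.316% in I53A. At an unadjusted p under 0.05, 8.35% were lower and 10.6% higher in KO, and 4.09% and 6.14% in I53A. The log2FC was negative for 51.5% of all genes in KO and 50.5% in I53A. Of 11 further amino acid supply genes, Mthfd1l, a mitochondrial formyl-tetrahydrofolate synthetase, fell in KO from a mean log2 signal of 8.48 to 7.41 (log2FC −1.07, SE 0.22, limma adjusted p 0.0221) and had −0.23 in I53A. In KO 4 of the 11 were lower and 1 higher at an unadjusted p under 0.05, the others lower being Got1 (−0.74), Aldh18a1 (−0.80) and Slc38a1 (−0.67), and 8 had negative log2FC. In I53A 1 was lower and 1 higher, and 9 had negative log2FC, with a median of −0.35. Of 17 mitochondrial tRNA synthetases, Mars2 rose in KO (1.19, adjusted p 0.0215). No gene was called in either mutant among 13 other cytosolic tRNA synthetases, 9 other folate and glycine genes, 6 heat shock genes and 9 NRF2 targets. In KO these 4 lists had 1, 1, 0 and 1 genes higher and 1, 1, 0 and 1 lower at an unadjusted p under 0.05. In I53A they had 1, 1, 0 and 1 higher and 1, 1, 0 and 0 lower. Their most different genes in KO were Farsa (0.97, adjusted p 0.25), Mthfd2l (−0.92, 0.422), Hspe1 (−0.50, 0.298) and Nqo1 (0.96, 0.363). Of 11 hypoxia genes, Pdk1, a kinase that keeps pyruvate out of the mitochondrial cycle, fell in KO (−1.10, adjusted p 0.0331). At an unadjusted p under 0.05, 3 of the 11 were lower in KO and 3 in I53A, and 0 higher in either. The list had a median log2FC of −0.17 in KO, with 8 negative, and −0.40 in I53A, with 10 negative. For 5 of its genes the I53A arrays all lay below WT, beside 9.84% of all genes. The hypoxia genes lower in I53A at an unadjusted p under 0.05 were Hk2 (−0.90, adjusted p 0.387), Pgk1 (−0.81, 0.344) and Vegfa (−0.58, 0.465).

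**Figure D4:**
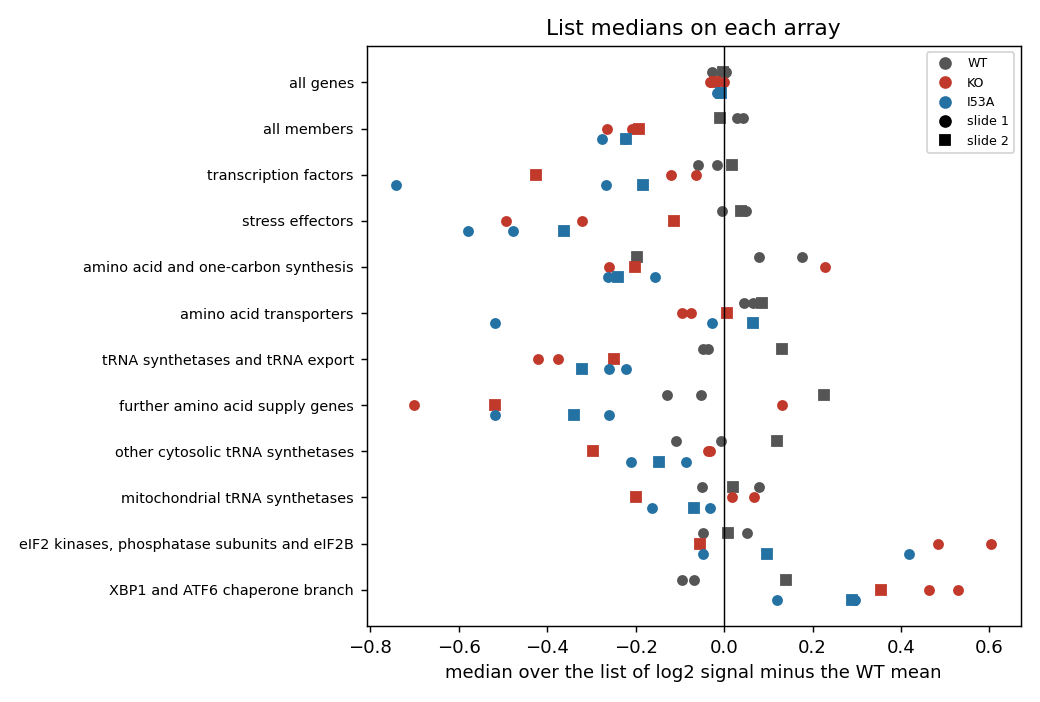
For each gene list (y axis), the median over its genes of the log2 signal minus that gene's WT mean (x axis) on each array, coloured by group, with circles for slide 1 and squares for slide 2. The effector and tRNA medians are below all WT arrays on every KO and I53A array, and the medians of the XBP1 and ATF6 branch are above WT on every KO array.

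Some markers of other cell types moved in KO as well. Over all genes, 3.11% were called higher and 1.25% lower in KO, and 0.316% and 0.119% in I53A. At an unadjusted p under 0.05 the shares were 10.6% higher and 8.35% lower in KO, and 6.14% and 4.09% in I53A. Of 6 endoderm markers 3 were called higher in KO (Gata4, Gata6 and Sox17) and none in I53A (2 higher at an unadjusted p under 0.05), with summed linear signals of 60 to 87 in WT, 207 to 239 in KO and 82 to 104 in I53A. Gata4 and Sox17 were not well above background on any WT or I53A array. Of the neural list Nes rose from below background in WT by at least 4.51-fold in KO (adjusted p 0.00151) and 4.69-fold in I53A (0.00881), while the summed signal was 330 to 368 in WT, 339 to 410 in KO and 347 to 384 in I53A. Of 7 fibroblast markers Thy1 rose in KO (1.31, adjusted p 0.0157), while Col1a2 was lower by just under the fold threshold (−0.98, adjusted p 0.0256) and Col1a1 (−0.57) and Col3a1 (−0.77) were lower at an unadjusted p under 0.05. The list had a median log2FC of −0.19 in KO, with sums of 471 to 563 in WT, 527 to 580 in KO and 530 to 703 in I53A. None of 5 trophoblast markers was called, and their sum was 9871 to 11003 in WT, 6180 to 6405 in KO and 10923 to 13907 in I53A. At an unadjusted p under 0.05, 3 of them were lower in KO and 1 in I53A. Of 8 ES cell markers, Sox2 fell in KO (−1.03, adjusted p 0.0425) and Esrrb had −0.92 (0.238), while Nanog had 1.06 (0.141), Tdgf1 0.95 (0.114) and Klf4 0.67 (0.158), so that 2 were lower and 3 higher at an unadjusted p under 0.05. In I53A 2 were lower, Sox2 (−0.73) and Esrrb (−1.41), and 0 higher. The sum over the 6 with a value on every array was 27299 to 32684 in WT, 24856 to 26062 in KO and 27752 to 29451 in I53A. The part of these markers in the values of Atf4 and its targets was not tested.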

How the data were processed

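RNA from 9 mESC samples, 3 each of WT, KO and I53A, was labelled with Cy3 and hybridised to single-colour Agilent SurePrint G3 Mouse 8x60K arrays, which the authors read with Agilent Feature Extraction 11.5.1.1. Per the file headers, the deposited spot values are linear intensities with background subtracted, not normalized between arrays. The authors also deposited a table of log2 values, quantile normalized, of 30170 probes.

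Here, spots with outlier flags were left out, spots of a probe averaged, and the log2 values of 55681 non-control probes quantile normalized. The 30170 probes were fitted with group means in limma 3.58.1 (R 4.3.3, 6 residual degrees of freedom), with Benjamini-Hochberg adjustment over all of them. The fit was tested on simulated data. Arrays give no read depth, and 3 per group limits the precision. Quantile normalization fixes the distribution of each array, so a shift of all genes cannot be seen.

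Probes were named through the accession (24545), the Ensembl gene (2371), the symbol (5) or the position (2) in the files and RefSeq (GRCm38.p6), and 3247 stayed unnamed. Aars was named by position. The pathway genes and all lists were chosen with earlier results of these data known. Values on each array are given for called genes of the pathway, and for others that lay near a threshold or stood for a branch, the latter chosen after their values were seen. From other lists the text names called genes, or the one that differed most in KO. It also names some further genes of those lists outside this rule, and gives values on each array for few of their genes. The groups come from the sample titles. Alternatives were normexp background correction with an offset of 50 on median signals, 75th percentile scaling, the authors' table, leaving out dim probes, keeping outlier spots, the slide as a block, slide 1 alone, the replicate number as a block, the mean of all probes, no fold threshold and leaving out each array.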

Additional observations from a re-analysis of the deposited data

How the results depend on the processing

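Under the alternatives tried no called member reversed its call. Of the 9 pairs of a gene and a comparison followed through 18 alternatives each, Atf4 kept its call in KO in all 18 (log2FC −2.45 to −1.99). Ddit3 kept it in KO in 17, all but slide 1 alone, Atf4 in I53A in 16, Chac1 in 10 in KO and 12 in I53A, Slc7a3 in KO in 10, and Ddit3 and Mthfd2 in I53A in 6 each. Atf4 between KO and I53A was not called in any. The 4 members called in KO became 1 with slide 1 alone, and the 4 in I53A became 0. Over all genes, slide 1 alone called 212 higher and 31 lower in KO, and 1 and 1 in I53A. The main fit called 599 and 242 in KO, and 61 and 23 in I53A. With the slide as a block I53A had 2 members (48 genes higher and 12 lower over all genes). With 75th percentile scaling it had 2 (27 and 7 over all genes). Leaving out 1 array gave 2 to 4 in KO and 0 to 4 in I53A, and 0 between KO and I53A in each case. The cause was not tested, though slide 1 alone has fewer arrays.

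Arrays with the same replicate number did not deviate together (correlations of deviations from the group means −0.35 to 0.34), so the number is taken as a name. The numbers come from the sample titles, and another label gives replicate 1 for all 3 KO arrays, so the KO numbers are in doubt for this check and for the block. With the replicate number as a block 2 members were called in KO, Atf4 and Ddit3, and 1 in I53A, Atf4. Over all genes the block called 426 higher and 154 lower in KO, beside 599 and 242. In I53A it called 14 higher and 4 lower, beside 61 and 23.

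Leaving out dim probes, which tests fewer probes, called 6 members in each mutant. Over all genes it called 685 higher and 275 lower in KO, beside 599 and 242 in the main fit. For I53A it called 149 higher and 65 lower, beside 61 and 23. In KO Trib3 was then called lower (adjusted p 0.0277) and Cebpg higher (0.0256), and in I53A Nupr1 (0.0237) and Sars (0.0325) lower. A probe was kept where all 3 arrays of any group were well above background. Cebpg passed only through KO, the group where it was highest, so its call under this filter adds no support for a rise. With normexp, Nupr1 was called in KO (log2FC −1.14, adjusted p 0.0427) and Chac1 (−1.04, 0.0529) and Slc7a3 (−0.76, 0.0213, under the fold threshold) were not. Signals near background, as for Pck2, Aldh1l2, Slc7a11 and Herpud1, limit what can be seen for those genes.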
